A study of Mus musculus with 12 samples.

Results

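The comparison described here sets B220+ bone marrow cells of mice with a Myc transgene against cells of mice without one, over both states of a second transgene, Eµ-TTP-1. Cells were taken with magnetic beads that bind B220 (CD45R), a surface protein of B-lineage cells, and the RNA of a sample went onto 1 Affymetrix MOE430 2.0 array. All 12 arrays of the series entered, each chosen by its label, namely 3 from Eµ-Myc mice, 3 from Eµ-Myc;Eµ-TTP-1 mice, 3 from Eµ-TTP-1 mice and 3 from Wild Type mice. The 6 arrays with a Myc label were set against the 6 without one in an additive model that also held the TTP label, so that each Myc difference is measured with TTP status taken into account. The donors were littermates aged 4 to 6 weeks on a background that is 94% C57BL/6, and the labels call both Myc groups precancerous. Each array is labelled as a biological replicate. Both transgenes carry the Eµ prefix, which stands for the intronic enhancer of the immunoglobulin heavy chain locus, active in lymphoid cells of the B lineage, so a Myc difference here is one in cells selected by a B-lineage surface protein. Of 18194 genes with a single symbol, 10287 had a log2 intensity above 4 on at least 3 of the 12 arrays and were tested.

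Myc encodes a basic helix-loop-helix leucine zipper transcription factor that binds DNA together with its partner MAX, with the E-box CACGTG as its best known site. It is known for raising the transcription of genes for ribosome assembly, translation, mitochondria and nucleotide synthesis, and for opposing the differentiation of many cell types. In Eµ-Myc mice a phase of expanded, cycling B-lineage cells precedes B-cell lymphoma. TTP, the product of Zfp36, binds AU-rich elements of mRNAs and speeds their decay.

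In these cells the genes for ribosome assembly, mitochondrial ribosomes, one-carbon metabolism and purine and pyrimidine synthesis were higher with the Myc label. Genes of B-cell identity, interferon response, NF-κB signalling and antigen presentation were lower, and so were markers of granulocytes, erythroid cells and other blood cells. Of the 10287 genes, 4141 passed limma's test at an adjusted p under 0.05 (40.3%), 1719 of them higher (16.7%) and 2422 lower (23.5%) with the Myc label. These percentages are the background for the counts of gene groups below. "Called" below means past this threshold, and every difference is on the log2 scale, Myc label minus no Myc label, with the standard error of the fit.

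The arrays numbered 3 stood apart from their groups, and counts below are therefore given for all 12 arrays and for a fit on the other 8, called the 8-array fit. Signal above log2 4 both for Xist, the RNA that coats the inactive X in females, and for 1 or more Y-linked genes was found on these 4 arrays and on no other. Of the remaining 8 arrays, 7 had Xist alone and 1, Eµ-Myc array 1, had Y-linked signal alone. On the first principal component, with 73.5% of the variance over the tested genes, the 4 arrays numbered 1 and 2 without a Myc label lay between -72.6 and -53.4, while those with one lay between 11.6 and 76.2. The arrays numbered 3 lay at 5.35 (Eµ-Myc), 47.0 (Eµ-Myc;Eµ-TTP-1), 18.1 (Eµ-TTP-1) and -7.65 (Wild Type), so Eµ-TTP-1 array 3 sat among the Myc-label arrays. Leaving these arrays out was chosen with their values known, so a larger difference in the 8-array fit follows in part from the choice. Of the genes that the naming rule selected, 171 were called on 12 arrays (limma adjusted p of 0.0128 to 0.0445), and all 171 were called in the 8-array fit with the same sign and a larger fitted difference. Markers of the B lineage were present on every array. Cd79a, a chain of the B-cell receptor, spanned 14.03 to 14.42 log2 with the Myc label, against 14.29 to 15.06 without it. Pax5 was dimmer, with 8.01 to 9.39 and 8.77 to 10.47 in the same order of groups. Ptprc, the gene of CD45 whose B220 form was used for selection, spanned 13.17 to 13.85 and 13.54 to 14.48. Whether its probe set reads the B220 form alone was not tested.

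The Myc probe set itself separated the arrays numbered 1 and 2 by label, but not those numbered 3. Its log2 intensity was 13.71, 13.92 and 12.99 on the Eµ-Myc arrays and 11.82, 12.73 and 13.37 on the Eµ-Myc;Eµ-TTP-1 arrays. It was 10.05, 10.39 and 13.47 on the Eµ-TTP-1 arrays and 9.65, 9.68 and 12.65 on the Wild Type arrays. The arrays labelled Eµ-TTP-1 3 and Wild Type 3 were thus within the range of the Myc-label arrays, and their signal goes against their labels. Over all 12 arrays the difference was 2.11 ± 0.67 (limma adjusted p = 0.0268), and without the arrays numbered 3 it was 3.10. The call for Myc held in 5 of the 12 fits that left out 1 array each.

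**Figure D1:**
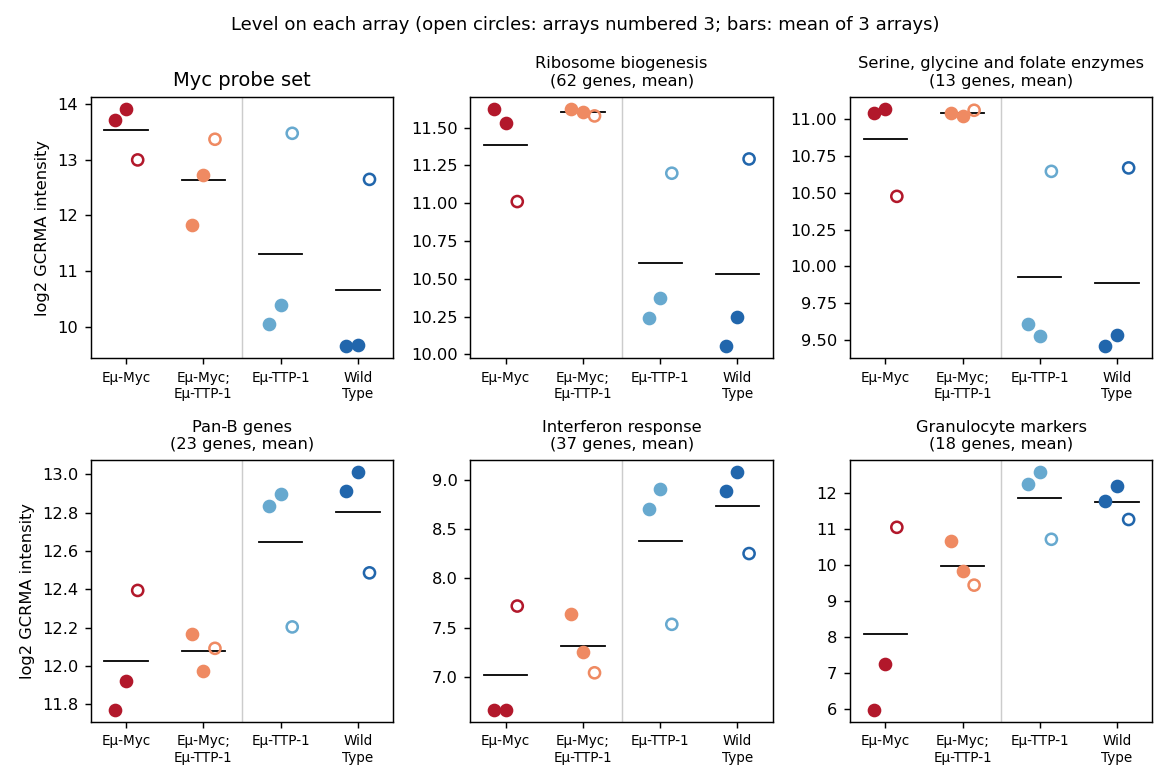
Log2 GCRMA intensity on each of the 12 arrays for the Myc probe set and, as means over the tested genes, for ribosome biogenesis, serine, glycine and folate enzymes, pan-B genes, interferon response and granulocyte markers; points are arrays, open circles the arrays numbered 3, and bars means of 3 arrays. On arrays 1 and 2 each panel separates the Myc-label groups (left of the line) from the others, and the open circles of Eµ-Myc, Eµ-TTP-1 and Wild Type lie toward the other side.

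The TTP gene and both of its tested relatives fell with the Myc label. Zfp36 had log2 intensities of 7.47, 9.23 and 10 (lowest, median and highest of 6 arrays) with the Myc label, against 9.78, 9.86 and 10.70 without it, a difference of -1.0 ± 0.29 (limma adjusted p = 0.0198). Zfp36l1 and Zfp36l2, which encode related AU-element binding proteins, differed by -0.91 ± 0.20 and -0.82 ± 0.23. All 3 were called, and without the arrays numbered 3 the differences were -1.39, -1.26 and -1.21. In the separate backgrounds the Zfp36 difference was -1.43 ± 0.39 with the TTP label and -0.57 ± 0.39 without it. The pooled value thus came more from the TTP background, though Zfp36 did not pass the test of the difference between backgrounds. The mean Zfp36 level was 9.85 on the Eµ-TTP-1 arrays and 10.11 on the Wild Type arrays. It was 8.42 on the Eµ-Myc;Eµ-TTP-1 arrays and 9.54 on the Eµ-Myc arrays, so it was not higher with the TTP label. Whether the Zfp36 probe set detects the transgene's RNA was not tested.

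Promoter sequences of genes that rose together were searched for CACGTG, the E-box of MYC and MAX, which reads the same on both strands. The windows ran from 250 bases before to 50 bases after the annotated start in RefSeq's GRCm38.p6 annotation, and 1432 of the 1719 genes called higher had one. CACGTG was present in 15.6% of genes called higher, in 10.7% of genes called lower and in 12.3% of all tested genes with a window. Among tested ribosome biogenesis genes it was present in 12 of 53 (22.6%). A second palindrome of the same base composition, GACGTC, was present in 8.66%, 6.63% and 9.04% of the same 3 sets and in 15.1% of the ribosome biogenesis genes. Each motif was searched on its own, and a window can hold both. Examples follow, from genes of ribosome assembly and nucleotide synthesis that were called higher and hold the motif, each 5′ to 3′ on the gene's strand with CACGTG in capitals. They were picked after the values were seen.
Nop2: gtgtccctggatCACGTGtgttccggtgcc
Imp4: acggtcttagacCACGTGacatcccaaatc
Utp18: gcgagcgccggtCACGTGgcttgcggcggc
Pes1: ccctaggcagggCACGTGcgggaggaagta
Wdr43: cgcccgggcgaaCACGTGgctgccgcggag
Paics: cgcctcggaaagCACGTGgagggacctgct
Atic: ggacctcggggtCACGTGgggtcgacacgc
Nme1: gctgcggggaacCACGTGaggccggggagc

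The Nop2 stretch lies at chr6:125131811-125131840 on the plus strand, and the motif begins 60 bases before the start of this gene for an rRNA methyltransferase. That of Imp4, a component of the small subunit processome, lies at chr1:34439696-34439725 (plus strand), 121 bases before the start. Utp18, of the same complex, has it at chr11:93885769-93885798 (minus strand), Pes1, of the PeBoW complex of the large subunit, at chr11:3963965-3963994 (plus strand) and Wdr43 at chr17:71616220-71616249 (plus strand). The differences with the Myc label were 1.16 ± 0.28 for Nop2, 0.79 ± 0.21 for Imp4, 0.80 ± 0.22 for Utp18, 0.79 ± 0.19 for Pes1 and 1.41 ± 0.31 for Wdr43. Paics and Atic, enzymes of purine synthesis, have theirs at chr5:76951087-76951116 (plus strand) and chr1:71557137-71557166 (plus strand), and Nme1, a nucleoside diphosphate kinase, at chr11:93968273-93968302 (minus strand). Their differences were 0.37 ± 0.10, 1.22 ± 0.28 and 1.03 ± 0.24. These genes share the letters in capitals and differ in what surrounds them. Of the 56 ribosome biogenesis genes called higher, 12 hold the motif in a window, so most of the genes that rose do not have these letters there.

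Rises were more modest than falls. The median difference was 0.62 among the genes called higher and -0.96 among those called lower, beside -0.06 over all tested genes. Past a fold of 2 there were 290 genes called higher and 1162 called lower, and past a fold of 4 there were 16 and 345. The 6 Myc-label arrays did not overlap the 6 others in 78 genes that were higher (0.758%) and 89 that were lower (0.865%). Of these, 70 and 88 were called. Without the arrays numbered 3, 6050 genes were called (58.8%), 2583 higher (25.1%) and 3467 lower (33.7%). They included 4131 of the 4141 genes, all with the same sign, and the 4 Myc-label arrays then lay apart from the 4 others in 50.4% of the tested genes, 2400 of them higher (23.3%) and 2785 lower (27.1%). Leaving out only Wild Type 3 and Eµ-TTP-1 array 3 gave 6078 calls (59.1%), 2376 higher (23.1%) and 3702 lower (36%). The split of calls moved with the scaling: after quantile normalization, 5518 genes were called (53.6%), 3194 higher (31%) and 2324 lower (22.6%), and the median over all genes shifted by 0.14 to 0.09. Leaving out 1 array at a time gave 2531 to 5497 calls, and the fewest without Wild Type 1 (2573), Wild Type 2 (2594), Eµ-TTP-1 array 1 (2531), Eµ-TTP-1 array 2 (2603), Eµ-Myc 1 (2701) or Eµ-Myc 2 (2741).

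The Myc difference was also read in each TTP background, from a fit of 4 group means in which the 2 contrasts share no arrays. Eµ-Myc;Eµ-TTP-1 against Eµ-TTP-1 gave 0 called genes in limma (0%), though 3707 had an unadjusted p below 0.05. Eµ-Myc against Wild Type gave 1135 (11%), 48 higher (0.467%) and 1087 lower (10.6%), of which 971 were also called over both backgrounds. The 2 differences had the same sign in 7433 genes (72.3%) and correlated across the 10287 genes at a Pearson r of 0.88 and a Spearman rho of 0.84, a description over genes that share the same normalization. All 4141 called genes had one sign in both, which the call over both backgrounds favours. No gene passed the test of the difference between the backgrounds in limma (0%), where the smallest adjusted p was 0.358 and 1351 genes had an unadjusted p under 0.05. Without the arrays numbered 3 that test called 235 of the 10287 genes. Of these, 226 had a more positive and 9 a more negative Myc difference under the TTP label, beside a median of 0.28 over all genes in the same fit. The median over all genes was 0.09 with the TTP label and -0.21 without it.

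**Figure D2:**
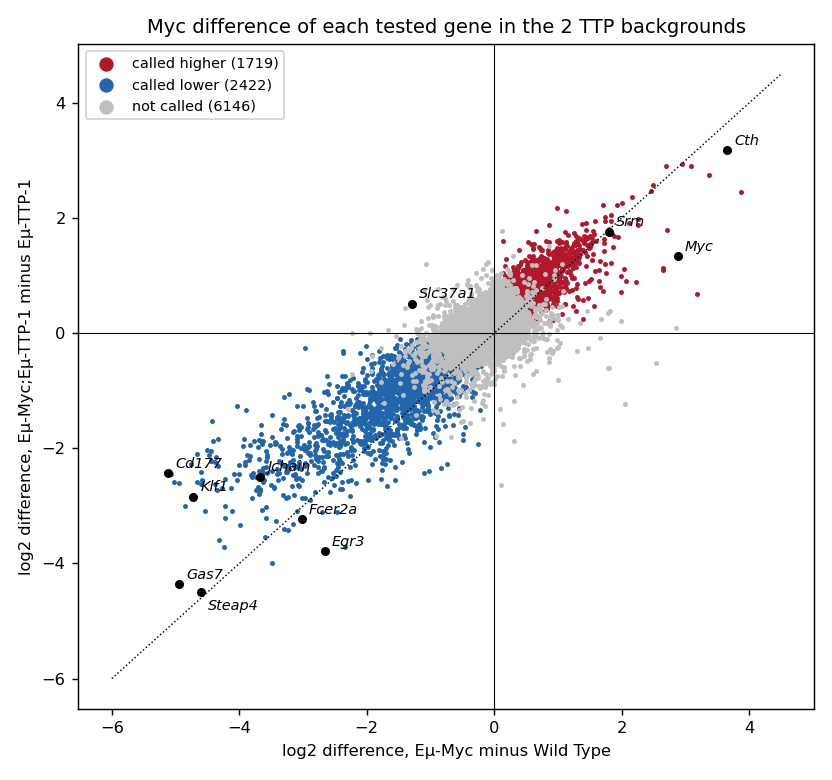
Each point is 1 of 10287 tested genes, with the Eµ-Myc minus Wild Type log2 difference on the x axis and the Eµ-Myc;Eµ-TTP-1 minus Eµ-TTP-1 difference on the y axis; the dotted line marks equal differences. The 1719 genes called higher lie in the upper right and the 2422 called lower in the lower left, while Slc37a1 differs in sign between the axes.

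The 12 largest rises were ranked by the fitted difference, which takes signal below the floor of log2 4 as it stands, and Cth, the enzyme that releases cysteine from cystathionine, came first. Its log2 intensity was 7.07, 7.62 and 8.60 (lowest, median and highest) on the 6 Myc-label arrays, against 2.75, 3.14 and 7.07 on the others, where only the arrays numbered 3 reached past the floor. The groups did not overlap, though the lowest Myc-label array and the highest other array met at the second decimal. Since 2 of those 6 arrays were above the floor, the change is given as a bound: Cth was at least 6.68-fold higher (limma adjusted p = 0.0128), and at least 16.7-fold on the 8 arrays. Rassf6, a member of the Ras-association domain family, had 6.96, 7.71 and 9.31 with the Myc label and 2.40, 4.26 and 7.17 without it, a difference of 3.16 ± 0.79. Epop, which encodes a partner of elongin BC and Polycomb repressive complex 2, was at least 6.94-fold higher, and Car12, a membrane-bound carbonic anhydrase, at least 5.25-fold, each also above the floor on 2 of the 6 arrays without the label. Bcat1, the cytosolic branched-chain aminotransferase, had 10.08, 11.17 and 11.35 with the Myc label, against 7.68, 8.14 and 10.57 without it. Its Myc-label arrays overlapped the others, since both arrays numbered 3 without a Myc label passed 10, and the difference was 2.13 ± 0.52. Nr1d1, a heme-binding repressor of the circadian clock, differed by 2.26 ± 0.57 and Hspa12b, a distant member of the HSP70 family, by 2.47 ± 0.50 with no overlap. Ltbp4, a binding protein of latent TGF-β, differed by 2.25 ± 0.48, also with no overlap. The other 4 of the 12 largest rises, Ankrd13b, Pcsk4, Slc35f2 and 2010204K13Rik, lay between 2.12 and 2.94. All 12 were called in every fit that left out 1 array.

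The 12 largest fitted falls included neutrophil genes (Mmp8, Cd177 and Pglyrp1) and erythroid genes (Nfe2, Klf1 and Ermap). Gas7 had log2 intensities of 2.56, 3.80 and 6.95 with the Myc label, against 6.68, 8.96 and 9.64 without it. It was above the floor on 1 of 6 Myc-label arrays and was at least 18.0-fold lower (limma adjusted p = 0.0128). Eµ-Myc array 3 held its highest Myc-label value, 6.95, and Eµ-TTP-1 array 3 the lowest of the others, 6.68, so the groups overlapped there alone. Steap4, a metalloreductase, was at least 9.22-fold lower, and Cd209a, a C-type lectin of dendritic cells, at least 6.72-fold lower. S1pr3, a sphingosine-1-phosphate receptor, was at least 5.68-fold lower. Mmp8, the neutrophil collagenase, had 3.41, 8.36 and 10.06 with the Myc label and 9.91, 11.56 and 12.09 without it, and fell by 3.81 ± 0.94 on the log2 scale. Cd177 and Pglyrp1, a surface protein and an antibacterial granule protein of neutrophils, differed by -3.77 ± 1.03 and -3.76 ± 1.05. Nfe2 and Klf1, transcription factors of the erythroid line, differed by -3.93 ± 0.95 and -3.78 ± 1.13, and Ermap, an erythroblast membrane protein, by -3.81 ± 1.06. The call for Klf1 held in 6 of 12 fits with 1 array left out, while the other 11 genes were called in all 12. Klra17, a lectin-like receptor, and F5, coagulation factor V, completed the set at -3.95 ± 0.75 and -3.71 ± 0.87. Without the TTP label Mmp8, Cd177, Pglyrp1 and Klf1 differed by -5.03, -5.12, -5.07 and -4.72. With it they differed by -2.59, -2.43, -2.45 and -2.84. Of the 12 falls only that of S1pr3 was larger with the TTP label (-4.0 against -3.49). None of the 12 passed the test of the difference between backgrounds.

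**Figure D3:**
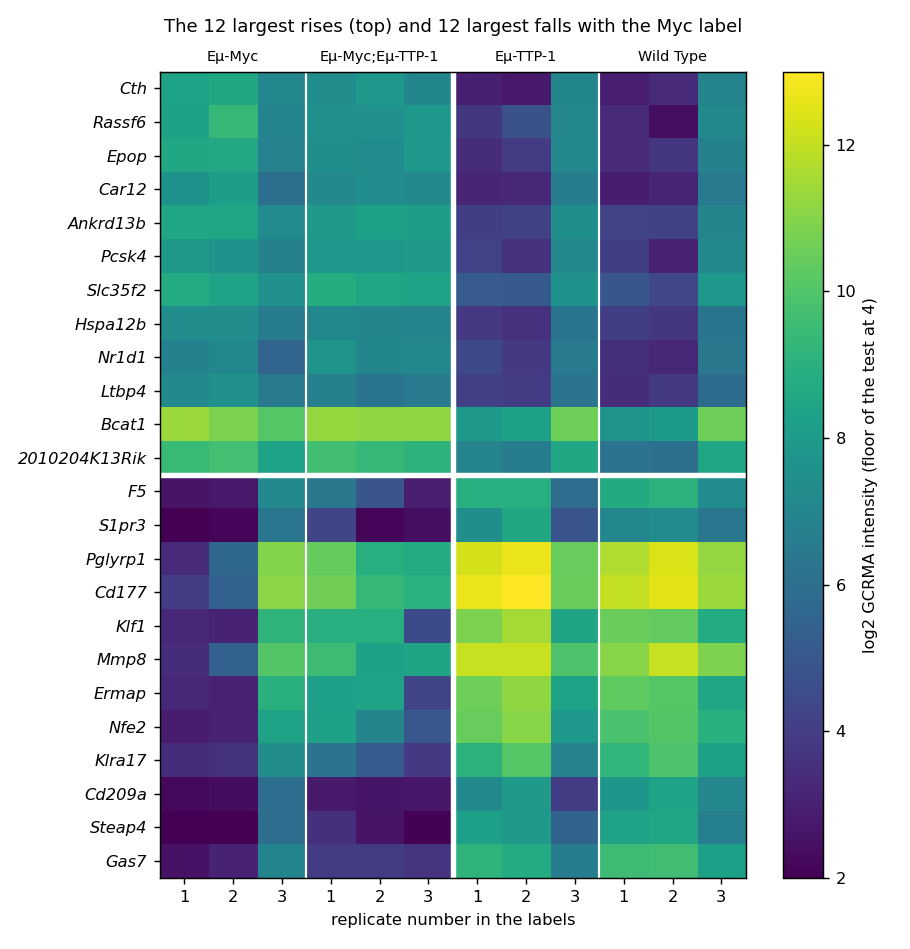
Log2 GCRMA intensity of the 12 largest rises (upper block) and 12 largest falls (lower block) on each array, with the 6 Myc-label arrays left of the thick line and columns numbered as in the labels. Columns numbered 3 of Eµ-Myc, Eµ-TTP-1 and Wild Type show intermediate colours in most rows.

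Markers of other blood cells moved with the Myc label as whole lists. Called lower were 17 of 18 granulocyte markers (median -2.98), 15 of 17 erythroid markers (median -2.72), 19 of 19 monocyte and macrophage markers (median -1.39) and 11 of 12 markers of NK and cytotoxic cells (median -2.0). None of these 4 lists had a member called higher. The mean log2 level of the granulocyte list spanned 5.97 to 11.05 over the Myc-label arrays, against 10.72 to 12.60 over the others. The 2 lowest values were those of Eµ-Myc arrays 1 and 2, and Eµ-Myc array 3 lay above the lowest array without the label. The erythroid list spanned 4.67 to 8.26 with the Myc label and 7.80 to 10.45 without it, the monocyte list 7.13 to 8.83 and 8.83 to 10.66, and the NK list 3.26 to 5.50 and 5.25 to 7.96. Csf3r, the G-CSF receptor, differed by -1.67 ± 0.33, Gata1, the master factor of erythropoiesis, by -2.55 ± 0.59, Ncr1, an activating NK receptor, by -2.05 ± 0.42, and Mpeg1, the macrophage perforin, by -1.97 ± 0.39. Because these are bulk samples, fewer cells of a type and less RNA per cell cannot be told apart. In the 8-array fit the medians were -4.10, -3.57, -1.82 and -2.49 in the same order of lists. With every value under the floor raised to it, the 12-array medians were -2.96, -2.61, -1.39 and -1.82. In the fit of 4 group means, the medians without the TTP label were -4.08, -3.33, -1.69 and -2.28, beside -0.21 over all genes. With the TTP label they were -1.98, -2.24, -1.35 and -1.76, beside 0.09.

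Most of the smaller marker lists moved the same way, but not that of megakaryocytes. On this scale no value is 0, and a level under log2 4 is below the floor. Of the plasmacytoid dendritic cell markers, 12 of 13 were called lower, among them Pacsin1 (-2.24 ± 0.45) and Tlr7, a receptor for single-stranded RNA, whose 6 Myc-label arrays at 4.10, 4.66 and 5.02 lay below all others at 5.03, 6.93 and 7.62. The median of the plasmacytoid dendritic cell list was -2.11 without the TTP label and -0.86 with it. All 5 tested basophil and mast cell markers were called lower, with Cpa3, a mast cell carboxypeptidase, at -3.08 ± 0.70. Of 7 stem and progenitor markers 6 were called lower, including Kit, the stem cell factor receptor, at -2.53 ± 0.64, and Lmo2 at -2.05 ± 0.54. T-cell markers gave 6 called lower and 1 called higher of 9, with Thy1 at least 3.12-fold lower and Cd28, above the floor on no Myc-label array, at least 1.73-fold lower. The member called higher was Cd8a, at 0.71 ± 0.24, named here after its value was seen, and its call held in 3 of 12 fits with 1 array left out. Of 5 megakaryocyte markers only 1 was called lower, beside 23.5% of all genes, and 3 in the 8-array fit, beside 33.7%. The called gene was Itgb3, at -1.42 ± 0.39, likewise named after its value was seen. With values under the floor raised to it, the median of this list went from -0.91 to -0.47.

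Ribosome assembly genes rose with the Myc label. Of 62 tested ribosome biogenesis genes, 56 were called higher and 0 lower, beside 16.7% of all genes called higher, with a median difference of 0.94 and members from 0.21 to 1.62. Without the arrays numbered 3, 61 were called higher (median 1.38). The mean log2 level of the list spanned 11.01 to 11.63 over the Myc-label arrays, against 10.05 to 11.29 over the others, and the overlap came from Eµ-Myc array 3 on one side and Wild Type 3 and Eµ-TTP-1 array 3 on the other. Rrp12, known in yeast as an export factor of ribosomal subunits, had 8.73, 9.60 and 9.91 with the Myc label, against 7.42, 7.93 and 8.97 without it, a difference of 1.34 ± 0.27. Wdr12, of the PeBoW complex, had 10.96, 11.55 and 11.69 and 9.44, 10 and 11.05 in the same order of groups, a difference of 1.27 ± 0.26. Nop14 and Rrs1, assembly factors of the small and the large subunit, differed by 1.04 ± 0.21 and 0.99 ± 0.20. The polymerases that transcribe rRNA and tRNA genes rose in part: 16 of 31 subunits and factors of RNA polymerase I and III were called higher and 0 lower (median 0.42; 20 higher and 2 lower in the 8-array fit). Polr1a, the largest subunit of polymerase I, differed by 1.17 ± 0.25, Polr3d by 1.04 ± 0.21, Polr3e by 1.14 ± 0.27, and Polr3g, the polymerase III subunit of proliferating and embryonic cells, by 1.24 ± 0.26.

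Genes for the ribosome's own proteins moved less on this scale. Of 38 cytosolic ribosomal proteins, 7 were called higher, beside 16.7% of all genes, with a median of 0.10, and 11 in the 8-array fit. Rps6 had 11.70, 11.93 and 12.10 with the Myc label, against 11.04, 11.17 and 11.69 without it, with no overlap and a difference of 0.65 ± 0.12. Rpl12 and Rpl14 differed by 1.01 ± 0.23 and 1.24 ± 0.29, and Rps25 by 0.59 ± 0.15. These genes have many processed pseudogenes, and which copies a probe set detects was not tested. Of the translation initiation and elongation factors, 20 of 36 were called higher and 0 lower (median 0.38; 30 higher and 0 lower in the 8-array fit). Among them were Eif2b1 (0.81 ± 0.19) and Eif2b3 (1.26 ± 0.31), subunits of the exchange factor that recharges eIF2 with GTP, and Eif3b (0.97 ± 0.22) and Eif3l (0.47 ± 0.11) of the eIF3 scaffold. Aminoacyl-tRNA synthetases and their scaffold proteins gave 14 called higher of 21 (median 0.49; 20 higher and 0 lower in the 8-array fit), with Aimp2 at 1.17 ± 0.27, Aimp1 at 0.49 ± 0.11, Eprs at 0.67 ± 0.16 and Gars at 0.83 ± 0.20.

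Mitochondrial ribosomes and protein import rose as lists, and the respiratory chain less so. Of 73 mitochondrial ribosomal proteins, 60 were called higher and 0 lower, with a median of 0.53 and, without the arrays numbered 3, 67 called higher (median 0.77). Mrpl12, which also binds the mitochondrial RNA polymerase, had 12.55, 13.07 and 13.23 with the Myc label, against 11.51, 11.83 and 12.74 without it, a difference of 0.99 ± 0.22. Mrpl11, Mrpl47 and Mrpl50 differed by 0.80 ± 0.17, 0.75 ± 0.15 and 0.91 ± 0.20. Of 30 import and chaperone genes, 23 were called higher, among them Timm8a1 (1.30 ± 0.28) and Timm10 (1.22 ± 0.27), small chaperones of the intermembrane space, Trap1 (0.97 ± 0.21), the mitochondrial HSP90, and Clpp (0.79 ± 0.18), a matrix protease. Of 62 genes of oxidative phosphorylation, 25 were called higher and 0 lower (median 0.23; 39 higher and 0 lower in the 8-array fit), including Atp5g1, a subunit of the ATP synthase ring, at 0.82 ± 0.20, Cycs, cytochrome c, at 0.55 ± 0.14, Ndufa10 at 0.46 ± 0.11 and Ndufa9 at 0.40 ± 0.10.

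Supply of one-carbon units, nucleotides and polyamines changed in named steps. Of 13 serine, glycine and folate enzymes, 11 were called higher and 0 lower (median 0.92; 1.33 without the arrays numbered 3). Mthfd1, the trifunctional cytosolic folate enzyme, had 10.79, 11.39 and 11.75 with the Myc label, against 9.60, 10.10 and 10.99 without it, a difference of 1.12 ± 0.24. Shmt1, the cytosolic serine hydroxymethyltransferase, differed by 1.05 ± 0.23, Mtrr, the reductase that restores methionine synthase, by 0.86 ± 0.19, and Mthfd1l, of the mitochondrial folate pathway, by 0.73 ± 0.16. Nucleotide synthesis gave 16 called higher and 1 called lower of 24 (median 0.71; 17 higher and 2 lower in the 8-array fit). Ctps, the CTP synthase, differed by 1.17 ± 0.25, Ppat, the first committed enzyme of purine synthesis, by 0.99 ± 0.22, Dhodh, the mitochondrial enzyme of pyrimidine synthesis, by 0.98 ± 0.20, and Gmps, the GMP synthase, by 0.60 ± 0.13. The member called lower was Rrm2, a ribonucleotide reductase subunit, at -0.31 ± 0.11, named after its value was seen, and its call held in 3 of 12 fits with 1 array left out.

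Polyamine metabolism was divided, with 4 of 9 genes called higher and 4 lower on 12 arrays as in the 8-array fit. Srm, the spermidine synthase, had 12, 12.93 and 12.99 with the Myc label, against 9.80, 10.55 and 12.52 without it, a difference of 1.78 ± 0.43. Odc1, the rate-limiting ornithine decarboxylase, differed by 0.62 ± 0.15, and Dohh, which completes the hypusine of eIF5A, by 0.92 ± 0.25. Sat1, the acetyltransferase that starts polyamine breakdown, fell, with 11.37, 11.88 and 12.36 against 11.96, 13.25 and 13.44 and a difference of -1.09 ± 0.25. Among 13 amino acid transporters, 3 were called higher and 2 lower, beside 16.7% and 23.5% of all genes. In the 8-array fit the counts were 4 and 4, beside 25.1% and 33.7%, so the list as a whole was close to the background. The members called higher were Slc7a5 (1.21 ± 0.28), Slc7a1 (0.99 ± 0.24) and Slc7a6 (0.98 ± 0.21). Slc38a9, the lysosomal arginine sensor of mTORC1, was among those called lower, at -1.37 ± 0.31. Glycolysis gave 7 called higher and 3 lower of 17 (9 and 4 in the 8-array fit). Ldha, lactate dehydrogenase A, and Pgam1 differed by 0.80 ± 0.20 and 0.70 ± 0.17, while Hk3, a hexokinase of myeloid cells, and the glucose transporter Slc2a3 differed by -2.66 ± 0.60 and -0.85 ± 0.20. The part that the myeloid markers' lower level had in the Hk3 value was not tested.

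Chaperones, nuclear transport and DNA replication rose in part, while the share of mitotic genes called higher stayed close to the background and few were called lower. Of 17 genes of the CCT chaperonin and the HSP90 system, 14 were called higher (median 0.54; 16 higher and 0 lower in the 8-array fit), with the cochaperones Stip1 at 0.91 ± 0.20 and Ahsa1 at 0.59 ± 0.14, Cct4 at 0.55 ± 0.13 and Hspa4 at 0.54 ± 0.14. Of 33 nucleoporins and transport factors, 23 were called higher (median 0.41; 30 higher and 1 lower in the 8-array fit). Nup133 (0.80 ± 0.17), Nup37 (0.71 ± 0.14) and Nup107 (0.70 ± 0.15) belong to the Y complex of the pore, and Nup155 (0.90 ± 0.17) to its inner ring. DNA replication gave 22 called higher and 0 lower of 43 (median 0.35), and 34 higher without the arrays numbered 3. Its changes were small, as in Gmnn, the licensing inhibitor geminin (0.51 ± 0.11), Pola1, the catalytic subunit of DNA polymerase α (0.41 ± 0.10), Rpa3 (0.48 ± 0.12) and Rfc2 (0.39 ± 0.10). Mitosis gave 6 called higher and 1 lower of 39, beside 16.7% and 23.5% of all genes, with a median of 0.15 beside -0.06. Called higher were 10 in the 8-array fit and 14 after quantile normalization, beside 25.1% and 31% of all genes. Aurkb, the kinase of the chromosomal passenger complex, and Espl1, separase, were at 0.48 ± 0.14 and 0.49 ± 0.14. Cdk1 was at 0.36 ± 0.11 and the securin Pttg1 at -0.50 ± 0.13. Cholesterol synthesis and uptake gave 3 called higher of 18, no more than the background of 16.7% of all genes. In the 8-array fit 7 were called higher, beside 25.1% of all genes. The 3 genes called on 12 arrays were Sqle (0.78 ± 0.18, no overlap), Cyp51 (0.77 ± 0.25) and Fdps (0.39 ± 0.14). With 1 array left out, the calls held in 7 of 12 fits for Cdk1, 6 for Cyp51 and 3 for Fdps.

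The G1 regulators were divided, with the share called higher close to that of all genes. Ccne1, cyclin E1, had 9.98, 10.31 and 10.55 with the Myc label, against 9.41, 9.64 and 9.79 without it, with no overlap and a difference of 0.68 ± 0.12 (limma adjusted p = 0.0128). Ccnd2, cyclin D2, had 8.01, 9.52 and 10.46 and 10.20, 11.83 and 12.49 in the same order of groups, a difference of -2.0 ± 0.44. Rb1, the retinoblastoma protein, and Cdkn2d, an inhibitor of CDK4 and CDK6, differed by -0.59 ± 0.15 and -0.75 ± 0.19. Of the 19 cyclins, CDKs and inhibitors, 3 were called higher and 7 lower, beside 16.7% and 23.5% of all genes. In the 8-array fit the counts were 5 and 9, beside 25.1% and 33.7%. In the network of MYC partners and antagonists, 1 of 11 genes, Myc itself, was called higher and 3 were called lower. With so few genes, these counts do not stand apart from the 16.7% and 23.5% of all genes. Mxd1, a MAX partner that represses transcription, had 6.29, 7.32 and 8.19 with the Myc label, against 7.66, 9.21 and 9.85 without it, a difference of -1.68 ± 0.43. Its lowest values, 6.29 and 6.44, were on Eµ-Myc arrays 1 and 2, where the granulocyte list was also lowest. The part of such cells in the Mxd1 value was not tested. Mlxip differed by -0.48 ± 0.13, and Mycl was at least 1.44-fold lower, a call that was lost after quantile normalization and held in 7 of 12 fits with 1 array left out. Max was at 0.21 ± 0.12, Mxi1 at 0.20 ± 0.11, Mnt at 0.15 ± 0.10, Mga at 0.21 ± 0.19, Mlx at -0.30 ± 0.17, Mxd4 at -0.24 ± 0.19 and Mxd3 at 0.00 ± 0.10, none of them called on 12 arrays. Under quantile normalization the list had 3 genes called higher and 2 lower, beside 31% and 22.6% of all genes.

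Genes of B-cell identity fell with the Myc label, although all arrays kept a high B-lineage signal. Of 23 pan-B genes, 18 were called lower and 0 higher, beside 23.5% of all genes called lower, with a median of -0.56. Without the arrays numbered 3, 20 were called lower (median -0.80). Ms4a1, which encodes CD20, had 12.92, 13.13 and 13.87 with the Myc label, against 13.57, 14.09 and 14.44 without it, a difference of -0.84 ± 0.17. Ebf1 and Foxo1, transcription factors of early B-cell specification, differed by -0.86 ± 0.18 and -1.37 ± 0.30, and Blk, a Src-family kinase of B cells, by -0.71 ± 0.16. Of 25 genes of pro-B and pre-B cells, 22 were called lower (median -1.22; -1.56 without the arrays numbered 3). Their median was -1.55 without the TTP label and -0.72 with it. Atp1b1, the sodium pump's β subunit, had 11.12, 11.70 and 12.93 and 13.02, 13.54 and 13.93 with and without the Myc label, with no overlap and a difference of -1.71 ± 0.28. Rag1, of the recombinase that assembles antigen receptor genes, differed by -1.44 ± 0.27, the cannabinoid receptor Cnr2 by -1.85 ± 0.35 and Irf8 by -1.01 ± 0.22. Among 28 genes typical of mature, recirculating B cells, 19 were called lower (median -0.66; 0 higher and 22 lower in the 8-array fit). Fcer2a, which encodes CD23, had 5.07, 5.27 and 7.47 with the Myc label, against 7.20, 8.87 and 10 without it, a difference of -3.13 ± 0.50. Cd40 differed by -2.11 ± 0.36, Tnfrsf13c, the BAFF receptor, by -1.33 ± 0.24, and H2-Ob, a modulator of class II peptide loading, by -1.20 ± 0.22.

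Signalling genes of B cells fell as well. Of 24 genes of B-cell receptor signalling, 14 were called lower and 0 higher (median -0.50; 0 higher and 18 lower in the 8-array fit), with Rasgrp3, an exchange factor for Ras, at -3.04 ± 0.76, the phosphatase Ptpn6 at -0.94 ± 0.22, the kinase Syk at -0.59 ± 0.14 and Malt1 at -0.55 ± 0.12. Of 19 NF-κB subunits and targets, 15 were called lower (median -1.50; -2.05 without the arrays numbered 3). Nfkbie, which encodes the inhibitor IκBε, had 8.53, 9.20 and 10.27 with the Myc label, against 10.15, 11.77 and 11.95 without it, a difference of -2.11 ± 0.37. Nfkbid and Nfkbiz, nuclear members of the same IκB family, differed by -1.50 ± 0.28 and -2.33 ± 0.47, and Birc3 by -1.40 ± 0.27. Immediate early genes, which respond within minutes to stimulation, gave 14 called lower and 1 higher of 19 (median -0.84; 1 higher and 16 lower in the 8-array fit). Egr1 had 5.95, 7.01 and 8.81 with the Myc label and 8.26, 10.34 and 11.22 without it, a difference of -2.91 ± 0.54, and Jun and the antiproliferative Btg1 differed by -2.42 ± 0.46 and -1.40 ± 0.24. Egr3, above the floor on 1 of 6 Myc-label arrays, was at least 7.60-fold lower. The member called higher was Nr4a2, at least 1.74-fold, named after its value was seen. Granulocytes and monocytes, whose marker lists were lower on the same arrays, also express NF-κB targets and immediate early genes, and their part in these values was not tested. Whether other blood cells had a part in the Ptpn6, Syk and Irf8 values was not tested either.

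Interferon-response genes were lower with the Myc label in a block. Of 37 genes, 31 were called lower and 0 higher (median -1.26; -1.68 without the arrays numbered 3). The list's mean log2 level spanned 6.67 to 7.72 over the Myc-label arrays, against 7.53 to 9.08 over the others. Mx1, an antiviral GTPase, had 2.89, 5.20 and 6.03 with the Myc label, against 6.25, 8.02 and 8.62 without it, with no overlap and a difference of -3.08 ± 0.55. Usp18, which removes ISG15 and restrains interferon signalling, was at least 5.81-fold lower, and Ifit3 at least 3.37-fold lower. Oasl1 differed by -2.28 ± 0.41. Plasmacytoid dendritic cells, known producers of interferon, had a marker list with a mean log2 level of 7.70 to 9.22 on the Myc-label arrays, against 9.14 to 10.83 on the others, and its part in the interferon values was not tested.

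Antigen presentation and lysosomal genes were lower to a smaller extent. Of 16 genes of MHC class I and peptide loading, 9 were called lower and 1 higher (median -0.50; 3 higher and 9 lower in the 8-array fit). B2m, the light chain of class I molecules, had 13.99, 14.24 and 14.67 with the Myc label, against 14.52, 15.07 and 15.18 without it, a difference of -0.73 ± 0.13, and Tapbp and Tap2, of the peptide loading complex, differed by -0.88 ± 0.16 and -0.81 ± 0.19. H2-D1 differed by -0.82 ± 0.15, but a second probe set of the gene, the one with the largest SD, gave 0.17 and was not called. Lysosome and autophagy genes gave 17 called lower and 1 higher of 32 (median -0.54; 1 higher and 23 lower in the 8-array fit). Ctss, cathepsin S of antigen-presenting cells, had 11.34, 11.66 and 12.15 with the Myc label, against 12.23, 12.45 and 12.83 without it, with no overlap and a difference of -0.76 ± 0.12. Ctss is also on the monocyte and macrophage list, whose 19 tested members were all called lower, and the part of such cells in these lysosomal and antigen presentation values was not tested. Ctsl differed by -1.74 ± 0.34, and the autophagosome proteins Gabarap and Map1lc3b by -0.74 ± 0.17 and -0.52 ± 0.11. In the integrated stress and unfolded protein response, 8 were called lower and 2 higher of 22 (11 and 6 in the 8-array fit), with the sensor kinase Eif2ak3 at -0.82 ± 0.19, Xbp1 at -0.93 ± 0.22, Edem1 at -0.81 ± 0.22 and Ddit3, which encodes CHOP, at -1.03 ± 0.30. Of 12 plasma cell genes 8 were called lower, and Jchain, the joining chain of polymeric antibodies, had 4.85, 5.44 and 8.28 against 6.76, 9.23 and 11.23, a difference of -3.08 ± 0.45. Fkbp11, a chaperone of secretory cells, was the exception in that list, with 6.14, 6.70 and 8.10 against 3.56, 4.80 and 6.0, no overlap and a difference of 2.07 ± 0.42.

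The p53 pathway was divided, and its balance moved with the scaling, as did that of all genes. Of 20 genes, 7 were called lower and 1 higher (7 and 3 in the 8-array fit), with a median of -0.04 beside -0.06 over all genes. Of all genes, 23.5% were called lower and 16.7% higher, and 33.7% and 25.1% in the 8-array fit. After quantile normalization 7 were called higher and 6 lower (median 0.14 beside 0.09), beside 31% and 22.6% of all genes. Cdkn1a, the p21 inhibitor of CDKs, had 6.75, 7.34 and 7.49 with the Myc label, against 7.25, 8.19 and 8.56 without it, a difference of -0.74 ± 0.23. Trp53inp1 and Apaf1, the core of the apoptosome, differed by -0.50 ± 0.14 and -0.35 ± 0.10, and the nuclease Aen by 0.67 ± 0.20. With 1 array left out, the calls held in 7 of 12 fits for Cdkn1a, 9 for Apaf1 and 8 for Aen. Of 13 members of the BCL2 family, 4 were called lower and 1 higher (5 and 4 in the 8-array fit). After quantile normalization 3 were called lower and 6 higher, beside 22.6% and 31% of all genes. The survival genes Bcl2l1, Bcl2 and Mcl1 were among the falls, at -1.54 ± 0.31, -1.72 ± 0.47 and -0.75 ± 0.18, and the 6 Myc-label arrays of Bcl2l1, at 5.89, 6.97 and 7.58, all lay below the others, at 7.62, 8.44 and 8.90. Bcl2l1 is also expressed at high level in erythroid cells, whose markers were lower on the same arrays, and their part in its value was not tested. Bid, a pro-apoptotic BH3-only protein, differed by 0.41 ± 0.14, a call that held in 4 of 12 fits with 1 array left out.

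**Figure D4:**
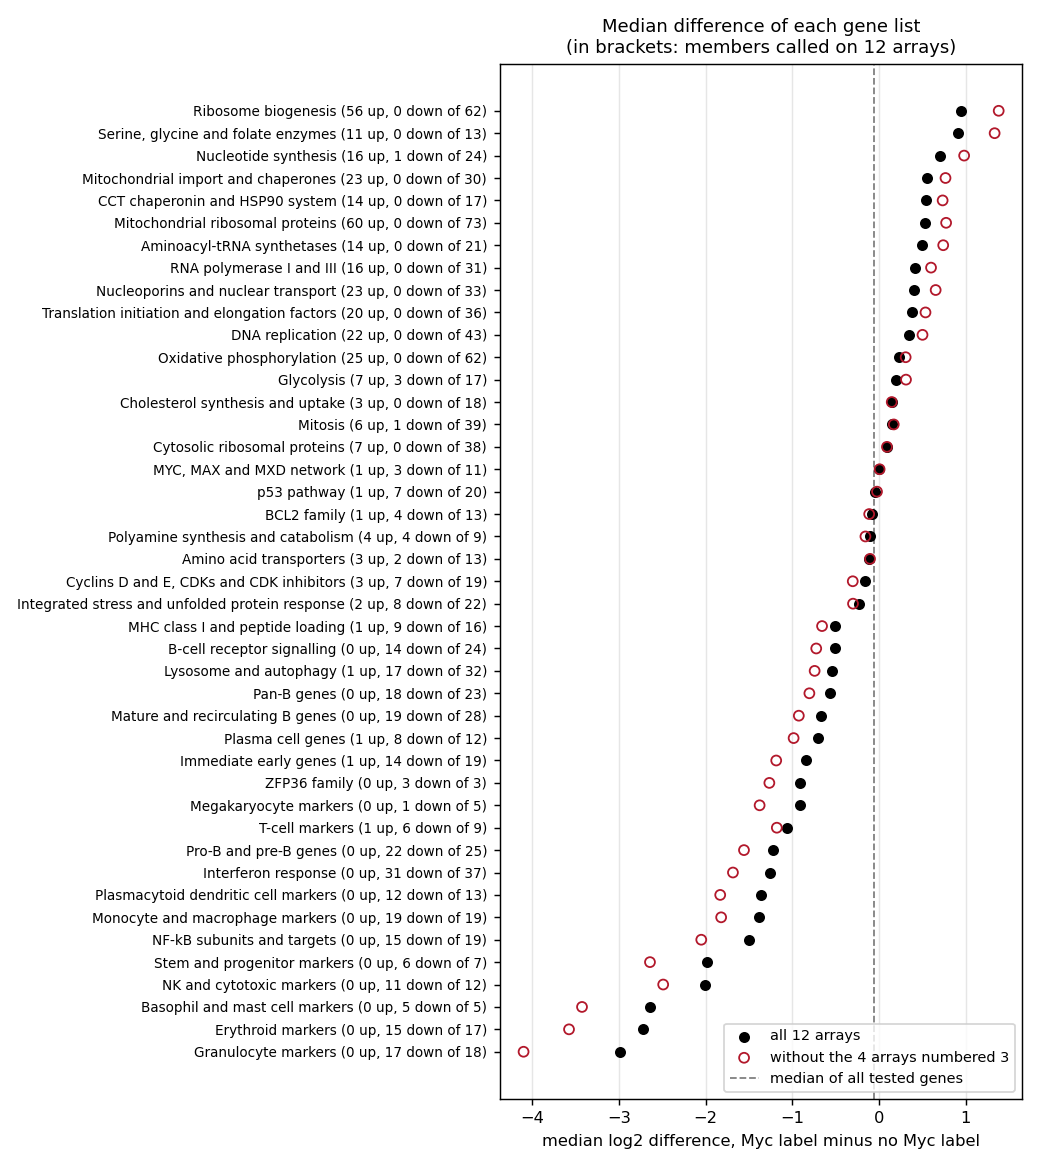
Median log2 difference, Myc label minus no Myc label, of the tested genes of each list with all 12 arrays (filled) and without the 4 arrays numbered 3 (open); the dashed line is the median of all tested genes, -0.06, and brackets give the members called. Ribosome biogenesis lies highest at 0.94, granulocyte markers lowest at -2.98, and leaving out the 4 arrays moves most lists farther from the dashed line.

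The 4 arrays numbered 3 were also read on their own, as values not used when genes were called on arrays 1 and 2. Among the 2583 genes called higher on arrays 1 and 2, Eµ-Myc;Eµ-TTP-1 array 3 exceeded Eµ-TTP-1 array 3 in 2405 (93.1%, median difference 0.37), beside 71.4% of all tested genes. Eµ-Myc array 3, in contrast, exceeded Wild Type 3 in 289 of them (11.2%, median -0.26), beside 14.6% of all tested genes. Among the 3467 genes called lower, Eµ-Myc;Eµ-TTP-1 array 3 lay below Eµ-TTP-1 array 3 in 1918 (55.3%) and Eµ-Myc array 3 below Wild Type 3 in 3039 (87.7%), beside 28.6% and 85.4% of all tested genes. The rises thus held on one pair of these arrays and not on the other, where the share of falls was also close to that of all genes, and neither pair has a replicate.

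**Figure D5:**
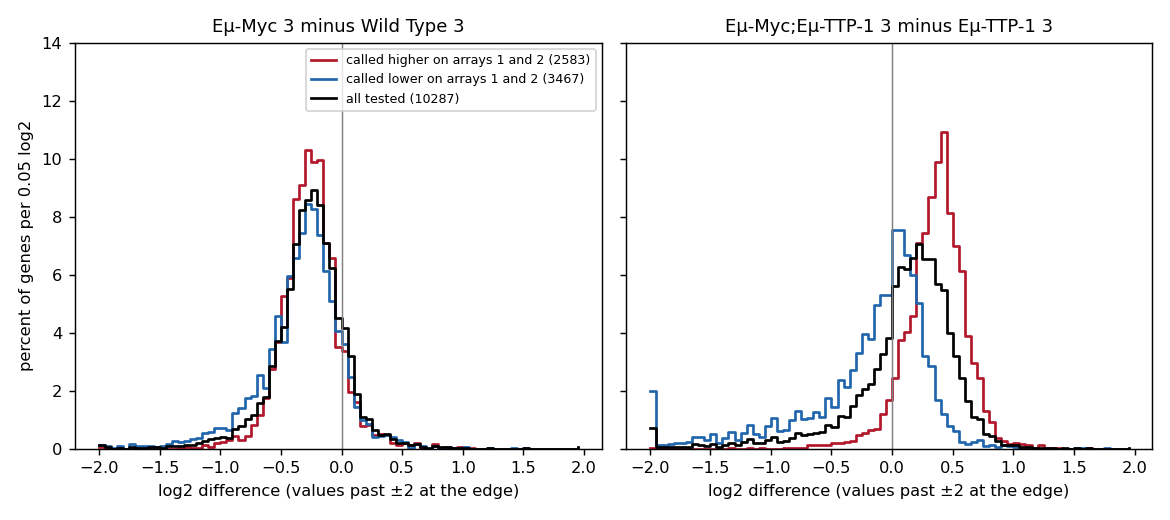
Distribution over genes of the log2 difference between the arrays numbered 3, for Eµ-Myc minus Wild Type (left) and Eµ-Myc;Eµ-TTP-1 minus Eµ-TTP-1 (right), as percent of genes per step of 0.05; red marks the 2583 genes called higher on arrays 1 and 2, blue the 3467 called lower and black all tested genes. On the left all 3 curves centre below 0, and on the right the red curve centres at 0.37, above the black one at 0.18.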

How the data were processed

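RNA of B220+ bone marrow cells was measured on 12 Affymetrix MOE430 2.0 arrays, grouped by their labels. Per the submitters' processing notes, the authors summarised the probes with GCRMA, a method that also subtracts background and normalizes arrays against each other; no version is given. The deposited values are intensity on a linear scale (1.73 to 120125, array medians 10.9 to 13.9). After such normalization, a shift in the RNA content of whole cells is not visible.

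Here log2 of the intensity was taken with no pseudocount. Of 45101 probe sets, 34958 had a single gene symbol in the platform annotation, 932 several and 9211 none, and 34754 were found by Entrez identifier in a RefSeq table of GRCm38.p6. For each of 18194 genes the probe set with the highest mean was kept. Of these, 10287 were above log2 4 on 3 or more arrays and were tested, and 7907 were not. On every array, 46.0% to 48.7% of probe sets passed that level. Precision is limited by the number of arrays.

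The Myc coefficient, beside the TTP label, was tested with limma 3.58.1 (R 4.3.3; lmFit and eBayes with trend), two-sided, with Benjamini-Hochberg adjustment over the 10287 genes. The procedure was checked on simulated data with independent noise of equal size for all genes and arrays. The simulation held no arrays that stand apart like those numbered 3, so the check does not cover that feature of the data. A fit of 4 group means gave the difference in each TTP background and the interaction. Where the mean of one side lay below log2 4, or fewer than 3 of its 6 arrays were above it, the fold is given as at least a value, from the brighter side's mean and the dimmer side's mean with lower values raised to log2 4. Lists are described by counts and medians without a set test.

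Named genes are, among called genes, the 12 largest rises and 12 largest falls with one sign in both backgrounds (leaving out X- and Y-linked sex markers and antigen receptor genes), up to 4 members with the smallest p of each list with 3 or more calls (2 for other cell types), the MYC network and the ZFP36 family, and the 5 genes with the smallest interaction p. Members, lists and alternatives were chosen with earlier results of these data known. The alternatives were other filters, probe sets, scalings, moderation, weights, covariates, pseudocount and threshold, a replicate block, and arrays left out.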

Additional observations from a re-analysis of the deposited data

Results flagged for a closer look

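In 5 genes every array pair of Eµ-Myc against Wild Type moved down and every pair of Eµ-Myc;Eµ-TTP-1 against Eµ-TTP-1 moved up. They were chosen for the smallest unadjusted p of the interaction, and none passed limma's test of the difference (adjusted p = 0.358 each). Slc37a1, a glucose-6-phosphate antiporter of the endoplasmic reticulum, differed between the backgrounds by 1.80 ± 0.30, with a Myc difference of 0.52 under the TTP label and -1.29 without it. Pogk, a transposon-derived gene with a KRAB domain, differed by 1.41 ± 0.24, and Rsph1, which encodes a radial spoke protein of cilia, by 1.50 ± 0.27. Ypel2 differed by 1.03 ± 0.20. Psme4, the proteasome activator PA200, differed by 0.86 ± 0.15, with 0.41 under the TTP label and -0.45 without it.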

How the results depend on the processing

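In these alternative settings, called named genes kept their direction more often than their call. They were chosen by calls on the same arrays, which favours a kept sign. The arrays numbered 3, read on their own, were divided for the 2583 genes called higher on arrays 1 and 2. Eµ-Myc;Eµ-TTP-1 array 3 exceeded Eµ-TTP-1 array 3 in 2405 of them (93.1%). Eµ-Myc array 3 exceeded Wild Type 3 in 289 (11.2%). Of the 183 genes that the naming rule selected, 171 were called, 153 of these were called in every setting with the 0.05 threshold in which they were tested, and 170 kept their sign, the exception being H2-D1 with the probe set of largest SD (0.17). Genes called numbered 3364 with no filter, 3848 at a floor of 6, 3850 with the probe set of largest SD, 4042 without the intensity trend, 3275 unmoderated, 4164 without the TTP covariate, 4449 with 4 group means and 4118 with log2(value + 16). Quantile normalization gave 3194 higher and a common median 2719, so that 57.9% and 51.9% of calls were higher, beside 41.5%. Array weights gave 6872 (2847 higher, 4025 lower). Leaving out the arrays numbered 3 gave 2583 higher, and leaving out Wild Type 3 and Eµ-TTP-1 array 3 gave 6078 (59.1%), with 2376 higher (23.1%) and 3702 lower (36%). Both steps of leaving out the arrays numbered 3 and quantile normalization, an alternative chosen after seeing the data, gave 6976, with 3956 higher. At an adjusted p under 0.01 the limma fit called 0 genes in all, 0 higher and 0 lower, since the smallest adjusted p was 0.0128, while 5273 genes had an unadjusted p under 0.05. Fits without 1 array gave 2531 to 5497 calls, 1031 to 2283 higher and 1429 to 3669 lower. The cause of these shifts was not tested. The interaction, 0 calls with all arrays, gave 235 without the arrays numbered 3.

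The replicate numbers were not taken to pair the samples. Residuals of same-numbered arrays correlated from -0.65 to 0.82, and both of these values came from arrays numbered 3. Signs that run both ways cannot tell whether a number marks something the arrays share, which was not tested. A replicate block gave 3906 calls (1516 higher, 2390 lower) and 0 for the interaction. Signs turned only near 0 among uncalled named genes. Mxd3 was -0.16 with the probe set of largest SD and -0.0603 to 0.0237 without 1 array. Pogk ranged from -0.0711 to 0.166 without 1 array. Psme4 was 0.0265 after quantile normalization, 0.0793 with a common median, 0.0160 without Wild Type 3 and Eµ-TTP-1 array 3, 0.0452 with both steps, and -0.0948 to 0.0584 without 1 array. With 12 arrays and 6 on each side, differences well below the spread between arrays cannot be resolved.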
